A study of Rattus norvegicus with 31 samples.

Results

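The glycolysis genes described here were measured in the mononuclear cells of rat blood (PBMC, which hold lymphocytes and monocytes). They were the glucose transporters Slc2a1 and Slc2a3, the hexokinases Hk1 and Hk2, the phosphofructokinase Pfkl, Gapdh, Pgk1, the enolase Eno1 and the lactate dehydrogenase genes Ldha and Ldhb. These 10 genes were chosen by symbol, and Ldhb was included because its values over the arrays fell into a high and a low range. All were found, on 13 of the array's 41012 probes, and all 10 were among the 22325 features tested. The study held 31 samples, each on its own 2-colour Agilent array against a pool of RNA from 5 randomly picked samples per group. CR-L (13 samples) were offspring of dams under 20% caloric restriction from day 1 to day 12 of pregnancy, and were given leptin until postnatal day 21, from 1.0 ng on the first day to 43.8 ng on the last, which is 5 times the amount in milk. CR (11 samples) were offspring of such restricted dams with ordinary lactation. WT (7 samples) were the control offspring of unrestricted dams, and the titles use WT where the protocol speaks of controls. All 3 groups ate chow freely for 4 months before blood was drawn. The 31 samples came from matings of 16 rats, and litter and sex were not analysed here, so each p-value treats samples as independent.

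Glycolysis splits glucose into pyruvate and yields ATP without oxygen. Glucose enters through facilitative transporters, is trapped by hexokinase, passes the committed step at phosphofructokinase and is oxidised at glyceraldehyde-3-phosphate dehydrogenase. Lactate dehydrogenase is a tetramer of subunits made from Ldha and Ldhb: the A subunit favours conversion of pyruvate to lactate, the B subunit the reverse. Activated lymphocytes are known for raising glycolysis, while platelets and red cells depend on it heavily.

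The probes through which the finding was read are shown first. The Ldhb probe is given because every Ldhb value came from it alone. Those of Ldha, Pgk1 and Gapdh are given because these genes varied most among the other members. Capitals mark bases that lie in a run of at least 20 bases shared with another probe of the array on either strand.
Ldhb: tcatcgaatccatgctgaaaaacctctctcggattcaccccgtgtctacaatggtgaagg
Ldha: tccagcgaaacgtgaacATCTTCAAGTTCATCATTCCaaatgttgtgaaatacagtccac
Pgk1: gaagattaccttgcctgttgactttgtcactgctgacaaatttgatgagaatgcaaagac
Gapdh, brighter probe: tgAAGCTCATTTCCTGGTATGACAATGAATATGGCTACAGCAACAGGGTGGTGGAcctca
Gapdh, dimmer probe: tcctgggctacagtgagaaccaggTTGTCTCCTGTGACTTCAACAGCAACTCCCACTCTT
In the files' rn4 coordinates the Ldhb probe spans chr4:180061921-180063949 on the minus strand, more than its 60 bases, so that alignment crosses an intron. The Ldha probe lies at chr1:97407674-97407733 on the plus strand and the Pgk1 probe at chrX:94336783-94336842 on the plus strand. The Gapdh probes lie at chr4:161282440-161282609 and chr4:161282655-161282714, both on the minus strand. The Ldhb and Pgk1 probes shared no run of 20 bases with another probe. The Gapdh probes shared runs of up to 25 bases with 7 and 3 probes under other names, and the Ldha probe a run of 20 bases with 1. Gapdh has many near copies in the rat genome, so its values may include signal from them.

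PBMC markers were present. Of the lists of cell markers, 8 of 8 T cell genes, 6 of 8 B cell genes, 7 of 8 monocyte genes and 7 of 8 genes of NK and cytotoxic cells were among the features tested. Markers of other blood cells were there too, with 8 of 10 platelet, 9 of 11 erythroid and 8 of 10 granulocyte genes. Red was well above background at 57.5% to 83.6% of spots per array. WT replicate 6 alone stood at 83.6%, with a median red intensity of 235, and no other array exceeded 65%. The number of arrays limits the precision. In bulk RNA such as this, fewer cells of a type and less RNA per cell cannot be told apart.

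Ldhb, which encodes the B subunit of lactate dehydrogenase, lay in separate high and low ranges within every group. Values are log2 ratios of the sample over the pool. In CR-L it ran from -2.78 to 0.99 with a median of 0.59, in CR from -2.36 to 0.90 with a median of 0.64, and in WT from -2.79 to 0.72 with a median of -2.30. Over all arrays 17 lay high, between 0.42 and 0.99, and 13 lay low, between -2.79 and -1.73. The median of the high range was 3.03 above that of the low range, or 8.16-fold. CR-L replicate 11 alone lay between them, at -0.62.

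These ranges are what Ldhb was chosen for, and the counts per group are a description without a test. Low were 4 of 13 CR-L samples (replicates 2, 3, 8 and 12), 4 of 11 CR samples (replicates 5, 6, 9 and 10) and 5 of 7 WT samples (replicates 1, 2, 4, 5 and 6). The group means of the log2 ratio were -0.28 ± 1.40 in CR-L (SD, n = 13), -0.35 ± 1.50 in CR (n = 11) and -1.60 ± 1.50 in WT (n = 7). The means were thus 1.33 higher in CR-L and 1.26 higher in CR than in WT, and 0.07 higher in CR-L than in CR. The SD within each group exceeded each of these differences, since each group held samples of both ranges.

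Within a range the group means differed far less than the ranges did, and WT had the lowest mean in both. In the high range the means were 0.73 ± 0.15 in CR-L (SD, n = 8), 0.73 ± 0.11 in CR (n = 7) and 0.57 ± 0.21 in WT (n = 2). In the low range they were -2.20 ± 0.43 in CR-L (n = 4), -2.23 ± 0.17 in CR (n = 4) and -2.47 ± 0.24 in WT (n = 5). The group means of Ldhb largely followed how many samples of a group lay in each range. The lower WT means within the ranges were not tested.

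The scanner intensities placed the difference in the sample channel. The red intensity of the Ldhb spot was 5140 to 9860 on the 17 high arrays, 542 to 1040 on the 13 low arrays and 2120 on CR-L replicate 11. The green intensity of the pool was 2070 to 2760 on the high arrays, 2120 to 3010 on the low ones and 2450 on CR-L replicate 11. The ratio of the medians, high over low arrays, was 9.09 in red and 0.977 in green. Red was well above background on all 31 arrays, so the low range was a measured level and not the floor of the scanner. The array carries 1 Ldhb probe in 1 spot, so a second probe could not be set beside it.

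**Figure D1:**
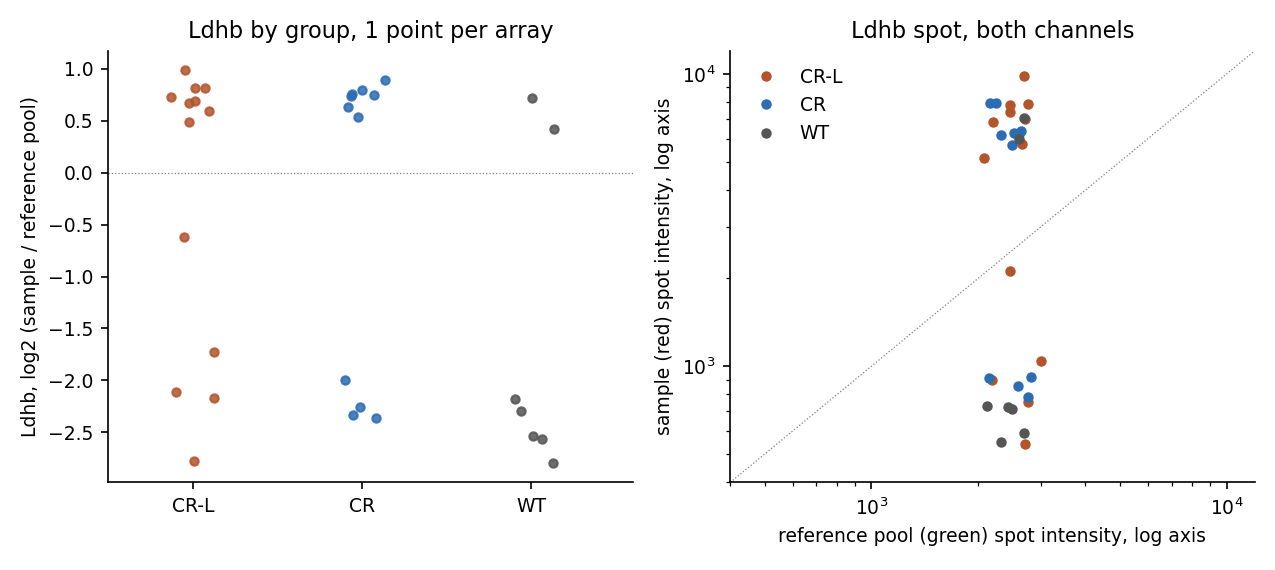
Left, Ldhb as log2 of sample over reference pool, 1 point per array, for CR-L (n = 13), CR (n = 11) and WT (n = 7). Right, the same arrays by green pool intensity and red sample intensity, both on log axes, with a dotted line of equal intensity; 17 arrays lie at 5140 or more in red and 13 at 1040 or less, while green varies little.

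The ranges did not follow the slide. Each of the 8 slides held 3 or 4 arrays, and 7 of the 8 held arrays of both ranges. The remaining slide held 4 high arrays. Every other log ratio or scale tried placed the same 13 arrays low and CR-L replicate 11 between the ranges.

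Gaps of this width between neighbouring arrays were uncommon. The widest gap of Ldhb was 1.11 and the next 1.04, with -1.73 just below the split, -0.62 between the gaps and 0.42 just above. A widest gap of at least this size was found in 83 of 22325 features (0.372%), and most of these set fewer than 7 arrays apart. With at least 7 arrays on either side, 6 features remained (0.0269%), Ldhb included. The others, named after their values were seen, were the ribosomal protein gene Rpl13, the MHC class II gene RT1-Bb, the fatty acid transporter gene Slc27a2 and 2 probes without a symbol. Their splits placed 17 to 22 of the 31 arrays on the same side as Ldhb did.

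Features with an established symbol are those in the RefSeq table, without placeholder names of LOC or RGD and a number. Among them the pattern over the 31 arrays most like that of Ldhb was that of Serpinf2. This gene, which encodes a plasmin inhibitor, had a Spearman rho of 0.74 and a Pearson r of 0.69 with Ldhb. Il7r, the receptor of the T cell survival factor interleukin-7, followed with rho = 0.70 and r = 0.47. Then came Tmem273 (rho = 0.70), the pseudouridine synthase gene Pus7 (rho = 0.69) and Shd (rho = 0.69). An absolute rho of 0.7 or more was reached by 6 features (0.0269%), some of which lack an established symbol and are not named here. The 5 named features did not show the 2 ranges: their widest gaps were between 0.11 and 0.29.

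Part of the likeness lay inside the ranges. These features were picked by rho over the same 31 arrays, and rho counts order inside a range. Their r within a range is thus partly built in by the choice and is given as a description. Il7r correlated with Ldhb at r = 0.87 within the 13 low arrays and r = 0.65 within the 17 high arrays. Pus7 did so at r = 0.63 within the low and r = 0.71 within the high arrays. Serpinf2 reached 0.60 in the low and 0.25 in the high arrays. With slide means taken off, Ldhb and Il7r correlated at 0.44 over all arrays. Within groups their r was 0.46 in CR-L and 0.64 in CR, against -0.37 in WT. The T cell marker mean correlated with Ldhb at r = -0.02 over the 31 arrays (rho = 0.22), and its part in the values of Ldhb was not tested.

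The measured genes next to Ldhb on chromosome 4 did not share its pattern. Recql, Pyroxd1, Slco1b2, Cmas, St8sia1 and C2cd5, the nearest 3 on each side in the RefSeq table, had rho between -0.33 and 0.46 with it. St8sia1, a sialyltransferase gene, was the nearest of them in pattern at rho = 0.46. None of the 6 had a gap wider than 0.26.

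Ldhb and its partner Ldha did not vary together. Over 31 arrays their r was 0.03 and their rho 0.14. Of the other members Pfkl was nearest to Ldhb, with r = 0.46 (0.62 with slide means taken off). Within the ranges it was 0.20 among the low arrays and -0.19 among the high arrays.

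None of the other 9 members differed between any groups after adjustment over all features. The fit was limma over all 31 arrays on the brightest probe of each gene, with p-values adjusted by Benjamini-Hochberg over all 22325 features and called below 0.05. CR-L against WT called 0 of 9 members, where 3.54% of all features were called. CR against WT called 0 of 9, where 0.466% were. CR-L against CR called 0 of 9, where 0% were, with 2.32% of features at an unadjusted p under 0.05. At an unadjusted p under 0.05 stood 1 member in CR-L against WT (16.7% of features), 0 in CR against WT (12.4%) and 0 in CR-L against CR. The median difference of the 9 members was 0.01 in CR-L against WT, 0.07 in CR against WT and 0.01 in CR-L against CR. Taken probe by probe, 0 of 12 probes of these genes were called in any comparison, with smallest adjusted p-values of 0.0894, 0.475 and 1.00 (limma over 26721 probes, in the same order, with 3.48%, 0.483% and 0% of probes called).

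**Figure D2:**
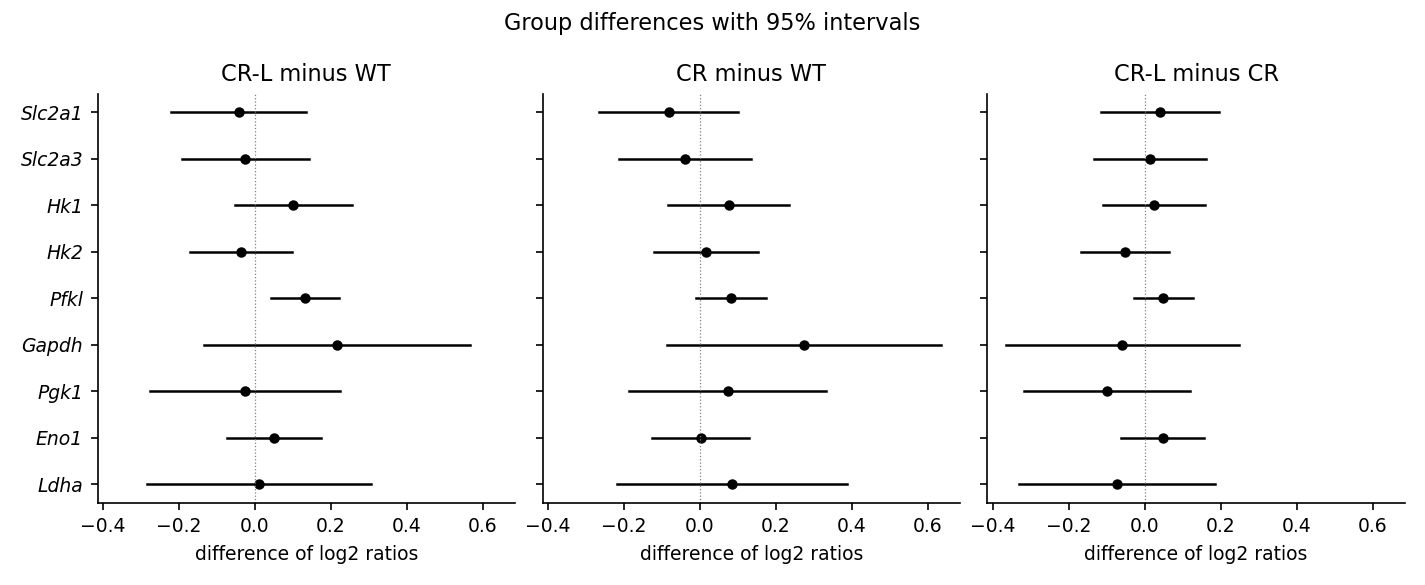
Differences of mean log2 ratios for 9 glycolysis genes, from top to bottom in the order of the pathway, in CR-L minus WT, CR minus WT and CR-L minus CR. Points are limma estimates over 31 arrays and lines their 95% intervals; the interval of Pfkl in CR-L minus WT is the only one that leaves out 0, and no adjusted p was under 0.05.

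The intervals bounded the differences unevenly. Of the 9 genes the widest 95% interval was that of Gapdh, which reached 0.57 in CR-L against WT and 0.63 in CR against WT. For Pfkl the interval of CR-L against WT was 0.04 to 0.22. A p-value above the threshold does not show that groups were alike.

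Slc2a1, the transporter for basal glucose uptake also known as GLUT1, ran from -0.28 to 0.37 in CR-L (median 0.05), from -0.38 to 0.36 in CR (median 0.02) and from -0.12 to 0.18 in WT (median 0.15). The groups overlapped over the whole WT range. The difference was -0.04 ± 0.09 (SE) in CR-L against WT, with an adjusted p of 0.868 in limma, and -0.08 ± 0.09 in CR against WT. Slc2a3, a transporter of high affinity also known as GLUT3, ran from -0.19 to 0.60 in CR-L, from -0.05 to 0.32 in CR and from -0.15 to 0.37 in WT. Its differences were -0.02 ± 0.08 in CR-L against WT and -0.04 ± 0.08 in CR against WT.

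Hk1, the hexokinase found in most tissues, ran from -0.15 to 0.32 in CR-L (median 0.13), from -0.13 to 0.28 in CR (median 0.14) and from -0.52 to 0.22 in WT (median 0.09). WT replicate 7 was the sample at -0.52, and the other 6 WT samples began at 0.05. The difference was 0.10 ± 0.08 in CR-L against WT, with an adjusted p of 0.554 in limma. A dimmer probe of Hk1 did not follow the brighter one closely. They correlated at r = 0.40 over 31 arrays, and at 0.06 without the 2 arrays farthest from the median of the brighter probe. The dimmer probe put CR-L at -0.01 ± 0.22 (SD), CR at 0.06 ± 0.10 and WT at -0.05 ± 0.17.

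Hk2, the insulin-responsive hexokinase, was barely measured: red was well above background on 7 of 31 arrays. It ran from -0.07 to 0.41 in CR-L, from -0.09 to 0.44 in CR and from -0.05 to 0.30 in WT. The ranges overlapped, and the difference of CR-L against WT was -0.04 ± 0.07.

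Pfkl, the liver-type phosphofructokinase, came nearest to a call. It ran from -0.08 to 0.26 in CR-L (median 0.05), from -0.11 to 0.13 in CR (median -0.03) and from -0.20 to 0.07 in WT (median -0.10). CR-L samples sat higher than WT samples, and the ranges overlapped. The difference was 0.13 ± 0.04 in CR-L against WT (unadjusted p = 0.00476, adjusted p = 0.0878 in limma), 0.08 ± 0.05 in CR against WT and 0.05 ± 0.04 in CR-L against CR. Within slides CR-L lay above WT on 7 of 7 slides, by 0.02 to 0.21. Without WT replicate 7 the adjusted p of CR-L against WT was 0.0388, and over the other arrays left out in turn it reached 0.213.

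Pfkl moved with the erythroid markers. Their r was 0.52 and their rho 0.62 over 31 arrays, with r = 0.35 within CR-L, 0.78 within CR and 0.63 within WT, and 0.49 with slide means taken off. The mean of 9 erythroid markers ran from -2.51 to 1.51 in CR-L, from -2.01 to 0.93 in CR and from -1.24 to 0.12 in WT. Hba-a1 and Hba-a2 of that list were not among the features tested. In CR-L against WT 9 of 9 erythroid markers lay above 0, with a median of 0.41, where 55.1% of all features did. In CR against WT 1 of 9 lay above 0, with a median of -0.21, where 55.4% of all features did. Pfkl was 0.08 higher in CR than in WT. Of the 9 markers 0 were called in either, where 3.54% (CR-L against WT) and 0.466% (CR against WT) of all features were. The pair of Pfkl and the erythroid markers was named from those of all member probes and marker lists. The share of all features with as high an r was not worked out. The part of red cell RNA in the difference of Pfkl was not tested.

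**Figure D3:**
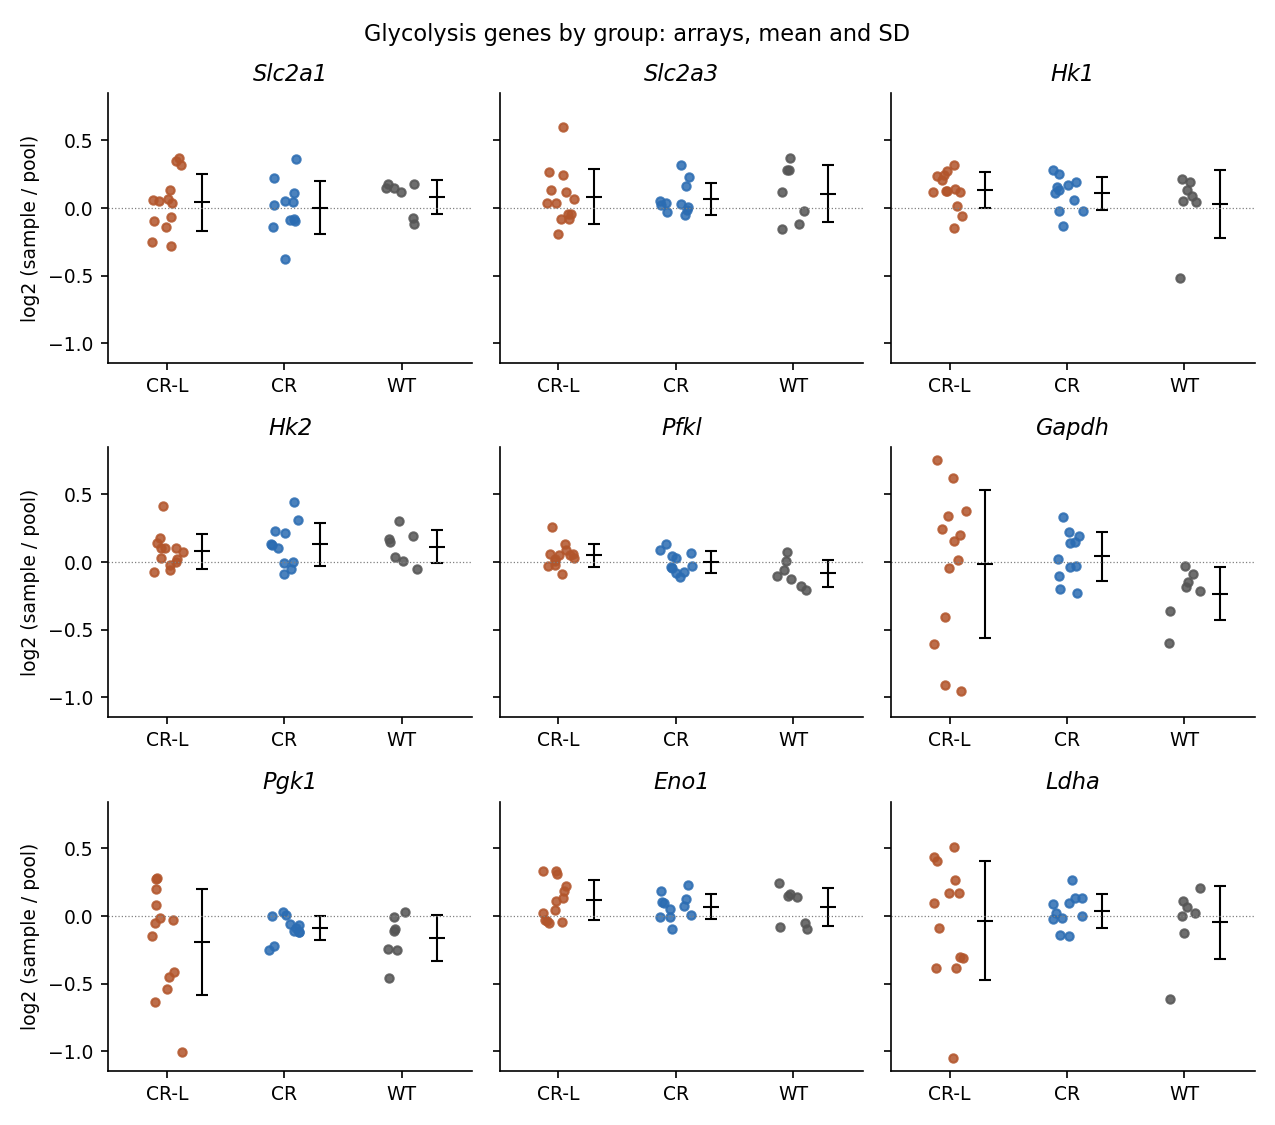
Log2 ratio of sample over reference pool for 9 glycolysis genes in CR-L (n = 13), CR (n = 11) and WT (n = 7), 1 point per array, with the mean and SD as bars beside the points. CR-L samples spread more widely than CR samples in Gapdh, Pgk1 and Ldha, and group means lie within the spread of the arrays.

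Gapdh, the enzyme that oxidises glyceraldehyde-3-phosphate and a common reference gene in expression work, ran from -0.95 to 0.76 in CR-L (median 0.15), from -0.23 to 0.33 in CR (median 0.02) and from -0.60 to -0.03 in WT (median -0.19). All 7 WT samples lay below 0, while the CR-L range covered both other groups. The difference was 0.22 ± 0.17 in CR-L against WT (adjusted p = 0.587 in limma) and 0.27 ± 0.18 in CR against WT (adjusted p = 0.564). Within slides CR lay above WT on 7 of 7 slides, by 0.11 to 0.49. The second Gapdh probe gave the same picture, with r = 1.00 between the probes over 31 arrays. Spots of the brighter probe, printed 10 times per array, differed by a median SD of 0.03 within an array, against an SD of 0.39 between arrays.

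Pgk1, which encodes the phosphoglycerate kinase that makes the first ATP of the pathway, ran from -1.01 to 0.28 in CR-L (median -0.05), from -0.25 to 0.03 in CR (median -0.09) and from -0.46 to 0.03 in WT (median -0.11). The CR samples lay within a narrow band and the CR-L samples did not. The difference was -0.03 ± 0.12 in CR-L against WT (adjusted p = 0.946 in limma) and 0.07 ± 0.13 in CR against WT.

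Eno1, the enolase of most cell types, ran from -0.05 to 0.34 in CR-L, from -0.09 to 0.23 in CR and from -0.09 to 0.25 in WT. Its difference of CR-L against WT was 0.05 ± 0.06. A dimmer Eno1 probe correlated with it at r = 0.64 and gave 0.08 ± 0.06. On both probes the ranges of the groups overlapped.

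Ldha, which encodes the A subunit of lactate dehydrogenase, ran from -1.05 to 0.51 in CR-L (median 0.10), from -0.15 to 0.27 in CR (median 0.02) and from -0.62 to 0.21 in WT (median 0.02). The lowest samples were CR-L replicate 5 at -1.05 and WT replicate 7 at -0.62. The difference was 0.01 ± 0.14 in CR-L against WT (adjusted p = 0.980 in limma), 0.09 ± 0.15 in CR against WT and -0.07 ± 0.13 in CR-L against CR. Unlike Ldhb, its widest gap of 0.44 set a single array apart from the other 30.

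The spread over samples was wider in CR-L than in CR for these 3 genes. For Ldha the SD was 0.44 in CR-L (n = 13), 0.12 in CR (n = 11) and 0.27 in WT (n = 7). For Pgk1 it was 0.39 in CR-L, 0.09 in CR and 0.17 in WT, and for Gapdh 0.55 in CR-L, 0.18 in CR and 0.19 in WT. The difference in spread was not tested. For the 9 members together the groups overlapped in every gene. The share of all features whose groups overlap was not worked out, so the overlap is a description and not a result about these genes.

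Ldha and Pgk1 followed each other from sample to sample. Their r was 0.95 and their rho 0.90 over 31 arrays, with r = 0.98 within CR-L, 0.77 within CR and 0.90 within WT, and 0.95 with slide means taken off. Without CR-L replicate 5, the lowest array of both genes, r was 0.92. Of all features, 38 (0.175%) correlated with Ldha at r above 0.9. Among those with an established symbol Pgk1 stood second, after Capns1, a calpain subunit gene, at r = 0.97. The dimmer Hk1 probe went with both, at r = 0.79 with Ldha and 0.80 with Pgk1, which the brighter Hk1 probe did not (0.18 with Ldha). These relations were chosen after their values were seen.

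Slc2a1 ran the other way. Its r was -0.60 with Ldha and -0.62 with Pgk1 over 31 arrays, or -0.66 and -0.69 with slide means taken off. Within groups its r with Ldha was -0.76 in CR-L and -0.56 in CR, against -0.20 in WT. Samples with more Ldha and Pgk1 thus tended to have less of the transporter. The difference in r between groups was not tested, and Ldha also spread most in CR-L (SD 0.44, against 0.12 in CR and 0.27 in WT). These pairs were named from those of all member probes.

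Gapdh followed the platelet markers. The mean of 8 platelet markers and Gapdh had r = 0.92 and rho = 0.92 over 31 arrays, with r = 0.95 within CR-L, 0.96 within CR, 0.90 within WT and 0.92 with slide means taken off. The platelet mean ran from -2.79 to 0.87 in CR-L, from -0.57 to 0.79 in CR and from -1.43 to 0.25 in WT. Itga2b and Gp6 of that list were not among the features tested. The pair of Gapdh and the platelet markers was likewise named from those of all member probes and marker lists. Platelet markers lay above 0 in 8 of 8 in CR against WT, with a median of 0.44, where 55.4% of all features did. In CR-L against WT 4 of 8 lay above 0, where 55.1% of all features did. Of these markers 0 were called in either, where 0.466% (CR against WT) and 3.54% (CR-L against WT) of features were. The features with an established symbol most like Gapdh were named after their values were seen. They were Ilk (r = 0.96), Parvb (0.95), Nrgn (0.94), Syt5 (0.94), Pttg1ip (0.94) and the ATP receptor gene P2rx1 (0.94).

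Ldha and Pgk1 also followed the platelet mean, at r = 0.65 and 0.64, and Slc2a1 ran against it at r = -0.57. The 4 samples with a platelet mean under -1 were CR-L replicates 3, 7 and 11 and WT replicate 7. Their Gapdh values were -0.95, -0.91 and -0.40 in CR-L and -0.60 in WT. Without these 4 arrays Gapdh and the platelet mean still had r = 0.87. CR-L replicate 5 stood apart, with Ldha at -1.05 and Pgk1 at -1.01 but Gapdh at 0.20. Without that array Ldha and Gapdh had r = 0.88, against 0.62 with it. Without the 4 arrays low in platelet markers 0 of 9 members were called in each comparison, an alternative chosen after seeing the data. The difference of Gapdh in CR-L against CR was then 0.16, against -0.06 with them. The part of platelet RNA in the values of these genes was not tested further.

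**Figure D4:**
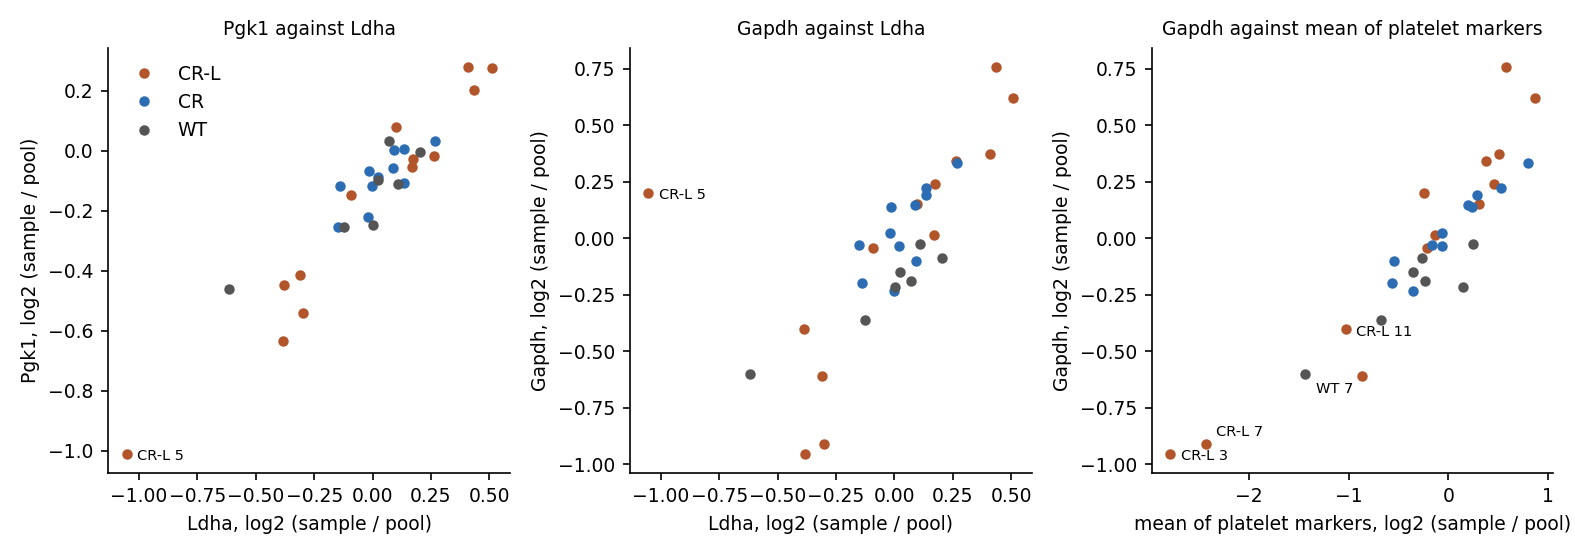
Each point is 1 of 31 arrays, coloured by group, on log2 ratios of sample over reference pool. Pgk1 against Ldha (r = 0.95), Gapdh against Ldha (r = 0.62, with CR-L replicate 5 apart from the rest) and Gapdh against the mean of 8 platelet markers (r = 0.92, with the 4 arrays under -1 named).

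Upstream sequence was compared for the lactate dehydrogenase genes, whose values over the samples differed most in kind. The 250 bases before the start of each, from RefSeq on build GRCr8, are printed with capitals for ACGTG on either strand, the core of the element bound by hypoxia-inducible factors, which regulate glycolytic genes.
Ldha, chr1:106507842-106508091, plus strand: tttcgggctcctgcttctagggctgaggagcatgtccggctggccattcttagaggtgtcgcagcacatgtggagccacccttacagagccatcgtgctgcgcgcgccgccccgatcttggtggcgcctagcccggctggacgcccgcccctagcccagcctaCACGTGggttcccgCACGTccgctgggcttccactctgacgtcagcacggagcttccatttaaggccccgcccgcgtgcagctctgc
Ldhb, chr4:177177409-177177658, minus strand: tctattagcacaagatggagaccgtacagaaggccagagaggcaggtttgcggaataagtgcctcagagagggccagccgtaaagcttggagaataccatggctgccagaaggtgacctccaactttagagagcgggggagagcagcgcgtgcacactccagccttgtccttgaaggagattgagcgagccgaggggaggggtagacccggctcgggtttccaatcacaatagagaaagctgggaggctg
ACGTG stood 3 times in the Ldha window, 2 of them overlapping in the E-box CACGTG, and 0 times in that of Ldhb. A match of ACGTG was found in 16.6% of 33469 such windows and CACGTG in 5.59%. Of the 8 members with such a window, 4 held ACGTG in at least 1 window (Ldha, Hk1, Gapdh and Slc2a1). Hk1 and Eno1 have more than a single window, and not every Hk1 window held it. The 16.6% counts windows and not genes. These letters are a description and not a binding site.

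Of the other genes of glucose metabolism, 60 of 74 listed genes were tested. CR-L against WT called 2 of them, where 3.54% of all features were called. Bsg, which encodes basigin, the chaperone of the lactate transporters, was called higher in CR-L than in WT in the main fit. It ran from -0.16 to 0.36 in CR-L (median 0.07), from -0.14 to 0.24 in CR (median 0.07) and from -0.65 to 0.08 in WT (median -0.07). The lowest WT sample was replicate 7 at -0.65, and the groups overlapped. The difference of CR-L against WT was 0.26 ± 0.07, with an adjusted p of 0.0387 in limma, and that of CR against WT was 0.23 ± 0.08 with an adjusted p of 0.170. Without WT replicate 7 the difference of CR-L against WT was 0.18 and no longer called, and without the 4 arrays low in platelet markers it was 0.17 (adjusted p = 0.161). The call was also lost without WT replicate 2, 5 or 6 and without CR-L replicate 1, 5, 7, 12 or 13.

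Vhl, the subunit of the ubiquitin ligase that removes hypoxia-inducible factors, was called lower in CR-L than in WT in the main fit. It ran from -0.20 to 0.19 in CR-L (median 0.03), from -0.14 to 0.28 in CR (median 0.13) and from 0.10 to 0.39 in WT (median 0.19). All 7 WT samples lay above 0, and the ranges overlapped. The difference was -0.21 ± 0.06 in CR-L against WT with an adjusted p of 0.0423 in limma, -0.11 ± 0.06 in CR against WT and -0.10 ± 0.05 in CR-L against CR. A second Vhl probe gave -0.25 ± 0.08 in CR-L against WT, with an adjusted p of 0.0866. The call was lost without WT replicate 1, 2, 4, 5 or 6 and without CR-L replicate 1, 3, 4, 6, 8, 12 or 13, over which the difference ran from -0.22 to -0.18. With the slide as a fixed block neither Bsg nor Vhl was called (adjusted p = 0.0669 and 0.0860), and neither was with red alone or with the authors' table.

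The share of called genes, 2 of 60, stood beside 3.54% of all features, of which 2.15% were higher and 1.39% lower in CR-L. Among 16 other glycolytic enzymes 0 were called in CR-L against WT, 11 lay above 0 (55.1% of all features did) and the median difference was 0.10. The nearest were the muscle-type phosphofructokinase Pfkm at 0.25 ± 0.09 (adjusted p = 0.138 in limma) and the mutase Pgam1 at 0.18 ± 0.07 (adjusted p = 0.171).

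Of 10 transporters and their chaperones 1 was called in CR-L against WT, Bsg, and Slc2a9, a transporter of urate, had -0.16 ± 0.07 and the monocarboxylate transporter Slc16a7 -0.15 ± 0.09. Of 14 regulators 1 was called, Vhl, and the gluconeogenic Fbp2 had 0.14 ± 0.06 and the phosphoglycolate phosphatase Pgp 0.13 ± 0.06. Of 13 genes of pyruvate entry into mitochondria 0 were called. Pdp1, the phosphatase that activates pyruvate dehydrogenase, had -0.20 ± 0.06 with an adjusted p of 0.0590 in limma. It was called with offset 100, with Agilent's log ratio, with red alone, with the authors' table, with red above background on all arrays and with the replicate block. Pdhb, a subunit of pyruvate dehydrogenase, had 0.22 ± 0.08. Of 7 pentose phosphate genes 0 were called, with the transaldolase gene Taldo1 at 0.12 ± 0.06.

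CR against WT called 0 of these 60 genes, with 30 above 0 (55.4% of all features were) and a median of 0.01. The smallest p-values were those of Slc2a9 at -0.23 ± 0.07 (adjusted p = 0.140 in limma), Bsg and Mpc1, a subunit of the mitochondrial pyruvate carrier, at 0.20 ± 0.07. Next in their lists came Pdhb at 0.21 ± 0.08, Pfkm at 0.24 ± 0.10, the testis-type Gapdhs at -0.13 ± 0.05, Fbp2 at 0.16 ± 0.06 and the transcription factor gene Myc at 0.41 ± 0.18. Taldo1 and Pgls had 0.07 ± 0.06 and 0.05 ± 0.05. CR-L against CR also called 0 of the 60, with 32 above 0 (47.9% of all features were) and a smallest adjusted p of 1.00. With the smallest p-values of the transporters, Slc2a6 had 0.29 ± 0.14 and the lactate exporter Slc16a3 0.22 ± 0.17. Among the enzymes Gapdhs had 0.07 ± 0.04 and the ADP-dependent glucokinase Adpgk 0.13 ± 0.07. Taldo1 had 0.05 ± 0.05 and Pgp had 0.09 ± 0.05. Dlat, a subunit of pyruvate dehydrogenase, had 0.07 ± 0.04, as did Pdp2.

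**Figure D5:**
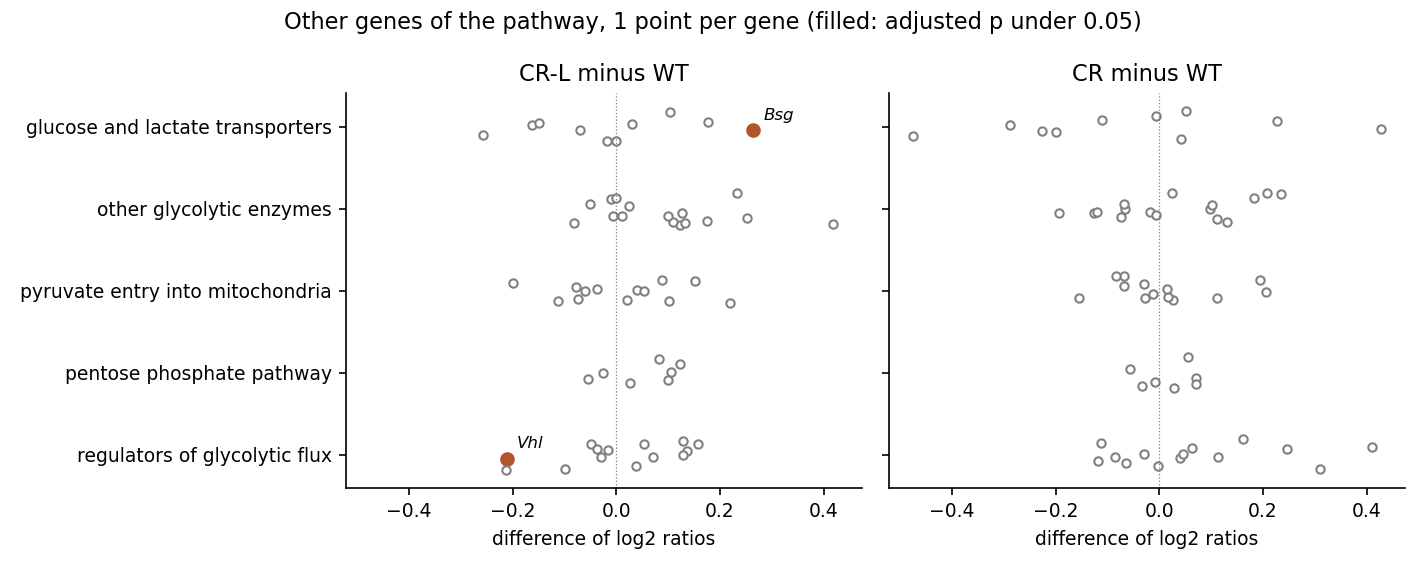
Difference of mean log2 ratios for the 60 tested genes of 5 lists of glucose metabolism outside the 10 members, in CR-L minus WT and CR minus WT, 1 point per gene. Filled and named points passed an adjusted p of 0.05 in limma: Bsg (0.26) and Vhl (-0.21) in CR-L minus WT, and 0 genes in CR minus WT.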

How the data were processed

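Each sample's RNA was labelled red (Cy5) and hybridised with the green (Cy3) pool, with no dye swap, per the labels. The authors deposited scanner output of Agilent Feature Extraction 10.7.3.1 (per the submitters' processing notes), with mean spot intensity, background intensity and a log10 ratio per the file headers, and a deposited series table of log2 values, which tracked log2 red intensity (r at least 0.993) with a median of 8.17 on each array; its further steps are not given in the sources used here. Here, limma 3.58.1 (R 4.3.3) ran normexp (offset 50) and loess within arrays, with control spots at weight 0 and outlier spots removed. Spots were averaged per probe, probes well above background in red on at least 7 arrays were kept (26721), and the brightest per gene stood for it (22325 features). Probes were named through accession where possible. All 31 arrays entered one limma fit with Benjamini-Hochberg adjustment. On simulated normal data for CR-L against WT over 22325 features the fit recovered 46.3% of changes of 0.25, 90.5% of 0.5 and 98.0% of 1. False calls averaged 7 per run. These shares are means over randomly drawn features and were not worked out for the members. They do not carry over to single members, of which Gapdh had the largest SE (0.17 in CR-L against WT). Ldhb was given no test. Members and lists were chosen with earlier results of these data known. The text names all members, list genes past the threshold plus 2 per list with the smallest p, and the 5 features with an established symbol most like Ldhb. A list gene that this rule names is not reported here.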

Additional observations from a re-analysis of the deposited data

Results flagged for a closer look

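Of the 13 probes, Dixon's test at the 95% level set 1 WT sample apart from the other 6 for 2 probes, and chance does so for about 1 group in 20. WT replicate 7 had Ldha at -0.62, with the next WT sample at -0.12, and Hk1 (brighter probe) at -0.52, with the next at 0.05. The same sample was the lowest WT sample in Gapdh (-0.60), Pgk1 (-0.46) and the platelet mean (-1.43). CR and CR-L hold more than 10 samples each and were not examined in this way.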

How the results depend on the processing

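The count of 18 Ldhb arrays above the widest gap was the same under all 6 alternatives run; with 1 probe, no other Ldhb probe could be tried, and Aquantile leaves log ratios unchanged by construction. Called members stayed at 0 in each comparison under the 14 settings that left out no single array (of 9, or of the 8 without Hk2 with the authors' table and with red above background on all arrays), and leaving out each array in turn gave 0 to 1 in CR-L against WT (Pfkl, without WT replicate 7) and 0 in the other comparisons. The 2 other pathway genes called in CR-L against WT were 0 with offset 16, with no filter on dim probes and with the slide as a fixed block. Only Pdp1 was called, and neither Bsg nor Vhl, with red alone, with the authors' table and with the replicate block, a count of 1 each. Vhl alone was called without the 4 arrays low in platelet markers, also a count of 1. Agilent's log ratio called Bsg and Pdp1 but not Vhl, array weights called Vhl and Pdhb but not Bsg, and offset 100 and red above background on all arrays called Bsg, Vhl and Pdp1. Leaving out each array in turn gave counts of 0 to 3; the cause was not tested.

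Replicate numbers of the titles were not taken as pairs in the main fit. Deviations of same-numbered samples correlated above 0.1 in 6 of 21 pairs (-0.425 to 0.367). Samples of different numbers were not compared in this way, so a pairing was not tested. The replicate block over 21 arrays called 0 of 9 members in each comparison, with 706 features in CR-L against WT against 791 without it. It turned the sign of these uncalled differences: CR against WT, Hk2 -0.0194 and Slc2a3 0.0031; CR-L against WT, Ldha -0.0305, Hk2 0.0141 and Slc2a3 0.0706; CR-L against CR, Hk2 0.0335.

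Other signs turned, all of uncalled differences. Not all stayed near 0: Gapdh in CR-L against CR went from -0.0583 to 0.1633 without the arrays low in platelet markers. Agilent's log ratio gave Hk2 -0.0378 and Slc2a3 0.0286 in CR against WT, and Ldha -0.0040 and Slc2a3 0.0917 in CR-L against WT. Red alone gave Hk2 -0.0695 in CR against WT and Slc2a3 0.0136 in CR-L against WT. Offset 16 gave Eno1 -0.0030, the authors' table Eno1 -0.0064 and array weights Eno1 -0.0068 in CR against WT. In CR-L against WT the authors' table gave Slc2a3 0.0425, the slide as a fixed block Ldha -0.0443 and Slc2a3 0.0002, and array weights Pgk1 0.0315 and Slc2a3 0.0057. In CR-L against CR array weights gave Ldha 0.0125, the mean over probes Hk1 -0.0235 and the fixed slide block Hk1 -0.0006. Without the arrays low in platelet markers CR against WT had Ldha -0.0099, Hk1 -0.0156, Eno1 -0.0224 and Slc2a3 0.0055, CR-L against WT Pgk1 0.0303 and Slc2a3 0.0604, and CR-L against CR Ldha 0.0229, Gapdh 0.1633, Pgk1 0.0068 and Slc2a1 -0.0264.

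Leaving out each array in turn, CR against WT ran from -0.0099 to 0.1271 for Ldha, -0.0156 to 0.1076 for Hk1, -0.0155 to 0.0469 for Hk2, -0.0238 to 0.0326 for Eno1 and -0.0818 to 0.0055 for Slc2a3. CR-L against WT ran from -0.0830 to 0.0967 for Ldha, -0.0754 to 0.0427 for Pgk1 and -0.0681 to 0.0192 for Slc2a3. CR-L against CR ran from -0.1186 to 0.0117 for Ldha, -0.1227 to 0.0197 for Gapdh and -0.0296 to 0.0388 for Slc2a3. Features called over the whole array in CR against WT were 104, but 65 with Agilent's log ratio, 34 with red alone, 56 with the replicate block and 0 with the authors' table. In CR-L against WT they were 791 and 500 with the authors' table. Hk2 signal, near background, limits what can be said of it.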
